A study of Mus musculus with 2 samples.

Results

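The mitochondrial genome of the mouse (chrM) is a small circle that encodes 37 genes, 2 for ribosomal RNAs (rRNAs), 22 for transfer RNAs (tRNAs) and 13 for messenger RNAs (mRNAs) of the respiratory chain. It is read from both strands into long precursor RNAs, which are cut apart at the tRNAs that punctuate them. These RNAs stay inside mitochondria, where ribosomes built on the mitochondrial rRNAs translate the mRNAs, and they are abundant in skeletal muscle. Mbnl2 is a muscleblind protein, a splicing factor that binds YGCY motifs (Y is C or T) in RNA. The Mbnl2 HITS-CLIP tags on chrM of quadriceps muscle were assigned by strand to these 37 genes, out of 37310 genes in the mm9 GENCODE annotation, and to positions outside them. A tag is a short RNA fragment that was crosslinked to the protein by UV light, trimmed with RNase A, immunopurified with the protein and sequenced.

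Muscle came from WT mice and from *Mbnl1* KO mice (*Mbnl1*-/-), both labelled C57BL/6 and 15 to 16 weeks old, with 3 mice per genotype. The *Mbnl1* KO is a germline deletion, so *Mbnl1* is missing from the whole animal and not from muscle fibres only. RNase A was used at 38.6 U/ml (high) and 0.0386 U/ml (low), and the tables do not tell these libraries apart. Each genotype has 1 table that pools its mice, with a line for every distinct tag, its place in the genome and how many reads it stands for. The rows carry 3 display colours. In the *Mbnl1* KO table the rows of each colour number 250572, 88768 and 137203, the unique tags that the study's supplement lists for its 3 replicates. In the WT table the colours hold 47008, 139576 and 156970 tags, and taking them as the 3 WT mice is an inference. No 2 WT tags of one colour shared a 5′ end and strand, while 29100 WT tags did so across colours. The colours are called replicates 1 to 3 below. Their use was decided after the tables had been examined.

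The tables held 343554 WT and 476543 *Mbnl1* KO tags from 5176203 and 50329234 reads. Tags seen in a single read were 79.0% in WT and 59.5% in *Mbnl1* KO. Tags whose reference sequence is at least 70% one base made up 44.1% of the WT tags and 17.0% of the *Mbnl1* KO tags. None of them lay on chrM, so that scaling to all tags lowers WT values of chrM more than *Mbnl1* KO values. In *Mbnl1* KO 8783 tags (215 on chrM) repeated the 5′ end and strand of another tag of their replicate, and in WT 0 did. All 10 skeletal muscle fibre markers had tags (978 WT, 3420 *Mbnl1* KO), while of the 3 cardiac markers Nppa and Myl7 had 0 and Myh6 had 4 and 3. Blood markers summed to 14 and 12 tags adipocyte markers to 3 and 20, endothelial markers to 37 and 87, and Schwann cell markers to 6 and 14. The gene body of Mbnl1 had 100 WT and 452 *Mbnl1* KO tags. The deleted part was not matched to an annotated exon here, so these tags of the whole gene check nothing about the knockout.

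The places with the most tags on chrM lie in mt-Rnr2, the large rRNA, and in 3 tRNAs, for valine (mt-Tv), methionine (mt-Tm) and histidine (mt-Th). The 30 nt around the 6 highest points, from the mm9 plus strand of chrM, are shown because they carry the densest Mbnl2 tags. Capitals mark the first bases of mt-Tl1 in the first sequence and the anticodon in the tRNAs.
mt-Rnr2 chrM:2650-2679: gtacaccctctaacctagagaaggttATTA
mt-Rnr2 chrM:1203-1232: agaactagtaccgcaagggaaagatgaaag
mt-Tv chrM:1039-1068: atattaaagcatctggccTACacccagaag
mt-Rnr2 chrM:1760-1789: tctccaggcatacgcgtataacaactcgga
mt-Tm chrM:3863-3892: agctatcgggccCATaccccgaaaacgttg
mt-Th chrM:11572-11601: actGTGaatctgacaacaggaaataaacct
The position with the most tags at each of these 6 points was covered by 103, 74, 65, 61, 59 and 59 tags of both tables together, and none of the 6 windows holds a YGCY motif. All 59 tags at the mt-Th point, and 31 of the 61 at the third point of mt-Rnr2, match a nuclear copy of chrM exactly. With tags at the same position counted once, a point of mt-Rnr2 at 1711 took the place of mt-Th among the 6.

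On chrM the WT table had 574 tags, 0.167% of its tags (exact 95% Clopper-Pearson interval 0.154 to 0.181), and the *Mbnl1* KO table had 2482, or 0.521% (0.501 to 0.542). In tags per 1000000 tags of the replicate, the WT replicates had 1510, 1411 and 1949 and the *Mbnl1* KO replicates 4621, 6658 and 5342. All *Mbnl1* KO replicates were above all WT replicates, with means of 1624 ± 286 (SD, n = 3) and 5541 ± 1033 (SD, n = 3). The ratio of the merged tables, *Mbnl1* KO over WT, was 3.12 (95% interval 2.85 to 3.42). Intervals here and below cover counting error only and compare these libraries. The median ratio of 3877 nuclear protein-coding genes with at least 20 tags in both tables together was 1.74, and 79.9% of them were above 1. Counted as reads the groups overlapped, with 0.581%, 0.861% and 1.62% of the WT reads and 1.46%, 2.69% and 1.39% of the *Mbnl1* KO reads on chrM, and the ratio of the merged tables was 1.27, below the nuclear median of 2.26 in reads. With tags of at least 2 reads the ratio was 2.005 (1.78 to 2.27).

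Nearly all of these tags were in sense. Of the genes, 28 lie on the plus strand and 9 on the minus strand, and 94.8% of WT and 95.04% of *Mbnl1* KO tags were on the plus strand. Among tags over a gene, 99.5% (98.5 to 99.9) of WT and 98.9% (98.5 to 99.3) of *Mbnl1* KO tags were on its strand. Over nuclear protein-coding genes, sense overlaps were 56.1% of all overlaps in WT and 72.7% in *Mbnl1* KO. That count keeps single-base tags, which chrM lacks, and takes a tag over several genes more than once. It therefore cannot be set directly beside the chrM share. Antisense tags numbered 3 in WT and 26 in *Mbnl1* KO, for a ratio of 6.25 (1.92 to 32.3), which was 3.71 without WT replicate 2 and 10.2 without WT replicate 3. Positions outside genes had 3 and 9 tags.

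Members were then compared by class. The 2 rRNA genes had 299 WT and 1285 *Mbnl1* KO tags (ratio 3.10, 2.73 to 3.53), the 13 mRNA genes 132 and 667 (3.64, 3.02 to 4.43) and the 22 tRNA genes 137 and 495 (2.61, 2.15 to 3.17). Per 1000000 tags, the rRNAs had 638, 802 and 1000 in the WT replicates and 2403, 3357 and 2806 in the *Mbnl1* KO replicates. The mRNAs had 426, 265 and 478 in WT and 1281, 1870 and 1312 in *Mbnl1* KO. The tRNAs had 426, 337 and 446 in WT and 866, 1341 and 1159 in *Mbnl1* KO. In each class the lowest *Mbnl1* KO replicate was above the highest WT replicate. As a share of the chrM tags the tRNAs had 28.2%, 23.9% and 22.9% in the WT replicates and 18.7%, 20.1% and 21.7% in *Mbnl1* KO, without overlap, whereas the shares of mRNAs and rRNAs overlapped between genotypes. In reads the ratio of the tRNAs was 0.843, on the other side of 1 from that in tags.

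**Figure D1:**
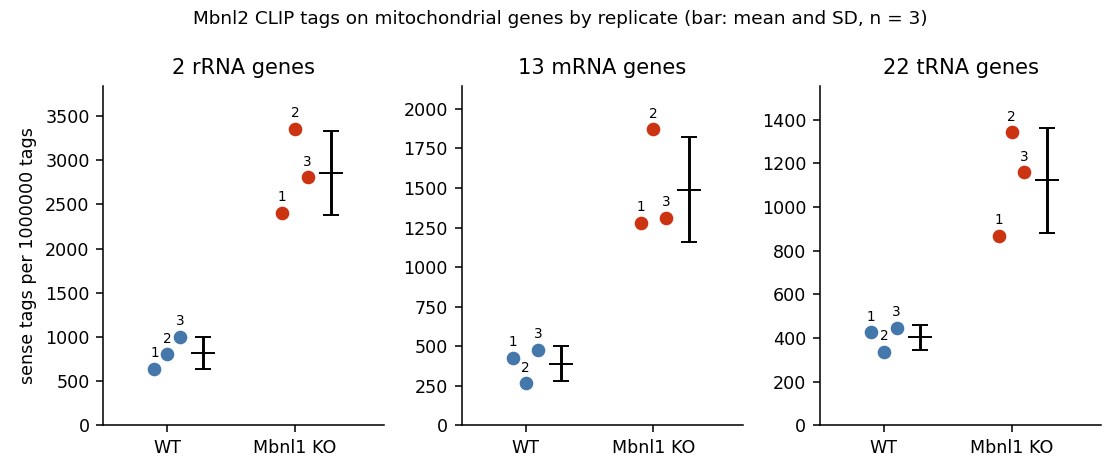
Sense tags on the mitochondrial rRNA, mRNA and tRNA genes, per 1000000 tags of each replicate, in WT (blue) and *Mbnl1* KO (red). Points are replicates with their numbers, and bars give the mean and SD of 3. The lowest *Mbnl1* KO value lies above the highest WT value in each panel (866 against 446 for tRNAs).

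Per length the classes differed. The rRNAs had 343 tags per 1000000 per kb in WT and 1063 in *Mbnl1* KO, the tRNAs 266 and 692, and the mRNAs 33.69 and 122.7. The rRNA level per kb was higher than the mRNA level in both tables, and of the single genes mt-Tv was highest in both, at 844 tags per 1000000 per kb in WT and 2190 in *Mbnl1* KO. A short tRNA with 1 dense position can reach a high value on this scale. The tRNA for tyrosine (mt-Ty), a tRNA for serine (mt-Ts1) and mt-Nd6 had 0 WT tags, against 9, 5 and 12 in *Mbnl1* KO. Against 3 tags allowed for the merged WT table these would be at least 2.16-fold, 1.20-fold and 2.88-fold higher in *Mbnl1* KO. With the counting error of both tables the ratios were above 1.423, 0.6606 and 2.003 only, so that mt-Ts1 has no direction.

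**Figure D2:**
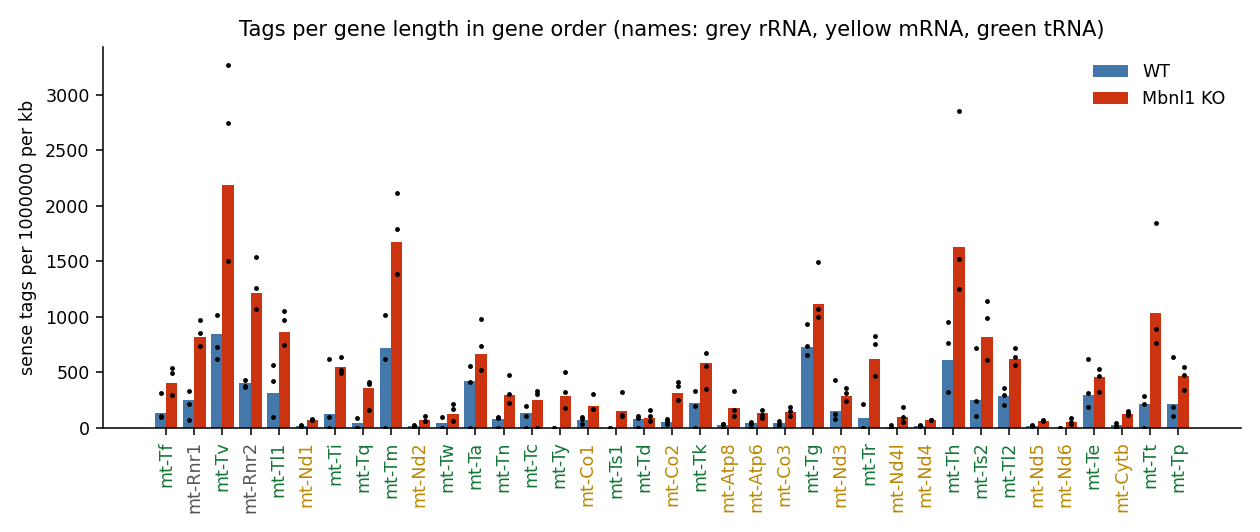
Sense tags per 1000000 tags per kb of gene length for the 37 genes in chromosome order, in the merged WT (blue bars) and *Mbnl1* KO (red bars) tables, with the 3 replicates as dots. Several tRNAs and both rRNAs stand above the mRNAs, with mt-Tv highest at 844 in WT and 2190 in *Mbnl1* KO.

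Among the 37 genes, the lowest ratio was 1.08 at mt-Td, the tRNA for aspartate, which had 5 tags in all. The counts that follow are over the 26 genes with at least 20 tags in both tables together. Of these, 22 had a ratio of at least 2, where 41.5% of the nuclear genes did, and none a ratio of at most 0.5, where 3.77% did. In reads, where 36 genes had at least 20, the counts were 24 and 8. Of the nuclear genes 52.3% had a ratio of at least 2 in reads. Their share at or below 0.5 in reads was not counted, so the 8 have no comparison. The interval lay above 1 at 20, where it did at 38.4% of the nuclear genes. The *Mbnl1* KO replicates lay above the WT replicates without overlap at 20 of the 26, against 44.1% of the nuclear genes, and at none below, against 4.05%. No gene of the 26 had its interval below 1, against 3.84%. The median ratio of the 26 was 3.10, against 1.74 over the nuclear genes. Scaled by the median nuclear gene, 8 of the 26 had a ratio of at least 2, against 13.6%, and the ratio fell below 1 at mt-Tg, mt-Te and mt-Ta.

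A test across replicates was then made with edgeR's quasi-likelihood test on the 26 genes and 3877 nuclear genes together, with TMM scaling, which centres the comparison near the bulk of genes, and Benjamini-Hochberg adjustment over all of them. It called 5 of the 26 higher in *Mbnl1* KO at an adjusted p below 0.05 and none lower, and 12 had an unadjusted p under 0.05, as did 1065 of the 3877 nuclear genes. In comparison, 5.6% of the nuclear genes were called higher and 7.14% lower. The 5 genes were mt-Rnr1, mt-Rnr2, mt-Nd2, mt-Co2 and mt-Cytb. On this scale the median log2 difference was 0.95 over the 26 genes and 0.08 over the nuclear genes. With all tags as library size, the medians were 1.67 and 0.78 and 19 of the 26 were called higher, beside 1148 of the 3877 nuclear genes. With tags of at least 2 reads none of 20 was called and 6 had an unadjusted p under 0.05, in a test that called 3 of 1732 nuclear genes higher and 9 lower, with 209 at an unadjusted p under 0.05. DESeq2 called mt-Rnr1, mt-Rnr2 and mt-Co2, beside 38 of 3877 nuclear genes higher and 76 lower. Nothing separates the mice from the libraries made of them, so the p-values measure the spread between these replicates. On simulated counts the test recovered 13% of 2-fold and 74% of 4-fold changes, so a gene that was not called can still differ.

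**Figure D3:**
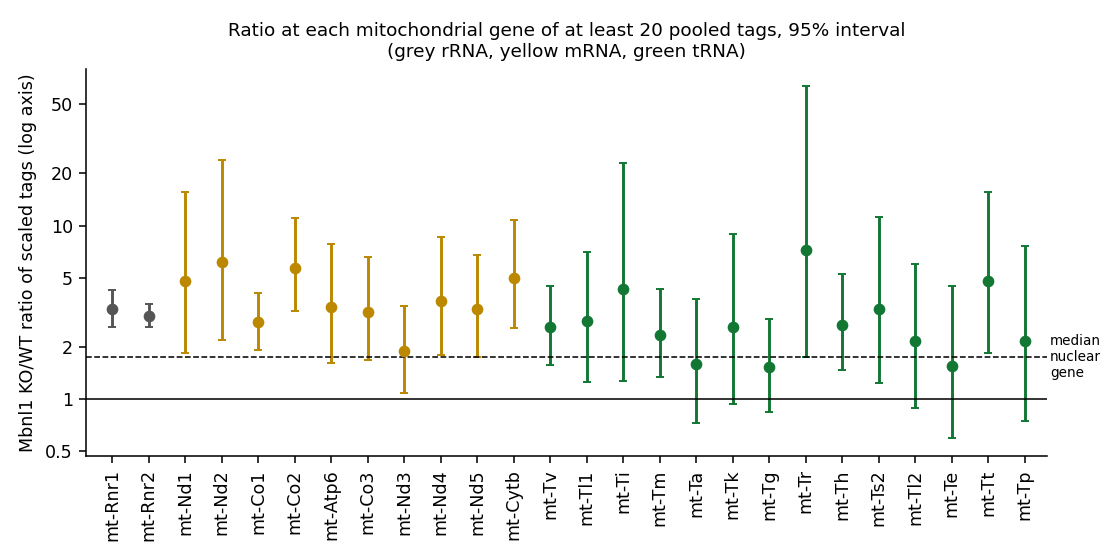
Ratio of tags scaled to the table total, *Mbnl1* KO over WT, on a log axis, for the 26 mitochondrial genes of at least 20 tags, with 95% intervals for counting error. The solid line is 1 and the dashed line the median nuclear gene, 1.74. Most points lie above the dashed line, and the exceptions at the low end are mt-Tg, mt-Te and mt-Ta with ratios of 1.53, 1.55 and 1.59.

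The rRNAs, which form the core of the mitochondrial ribosome, had the most tags. mt-Rnr1 (chrM:70-1024), the small subunit rRNA, had 81 WT and 371 *Mbnl1* KO tags. Its WT replicates had 3, 28 and 50 tags, or 63.8, 201 and 319 per 1000000, and the *Mbnl1* KO replicates 177, 82 and 112 tags, or 706, 924 and 816 per 1000000. The WT replicates were spread over a wide range and all lay below the *Mbnl1* KO replicates. The ratio was 3.30 (2.59 to 4.25) and the edgeR log2 difference 1.13 ± 0.27 (SE, adjusted p = 0.00216). mt-Rnr2 (chrM:1094-2675), the large subunit rRNA, had 218 and 914 tags. Per 1000000 it had 574, 602 and 682 in WT and 1696, 2433 and 1990 in *Mbnl1* KO, a narrow range in WT and no overlap. The ratio was 3.02 (2.61 to 3.52) and the log2 difference 0.96 ± 0.22 (SE, adjusted p = 0.00158).

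Complex I takes electrons from NADH, and 7 of its subunits are encoded on chrM. mt-Nd2 (chrM:3914-4951) was the one called, with 4 WT and 34 *Mbnl1* KO tags. It had 21.3, 14.3 and 6.37 tags per 1000000 in WT and 59.9, 113 and 65.6 in *Mbnl1* KO, for a log2 difference of 1.83 ± 0.63 (SE, adjusted p = 0.0402 by edgeR). The WT values rest on 1, 2 and 1 tags, and the call was lost when any 1 of the WT replicates, or *Mbnl1* KO replicate 2 or 3, was left out. mt-Nd1 had 5 WT and 33 *Mbnl1* KO tags, with a ratio of 4.76 (1.85 to 15.6), and missed the threshold (adjusted p = 0.0837 by edgeR). mt-Nd4 had 9 and 46 tags, for a ratio of 3.69 (1.78 to 8.56), which was 0.328 in reads. mt-Nd5 had 12 and 55 tags, for a ratio of 3.30 (1.75 to 6.78), and of 5.38 without WT replicate 3. mt-Nd3 had 18 and 47 tags and the lowest ratio of the mRNAs, 1.88 (1.07 to 3.44), which was 0.933 with tags of at least 2 reads and 0.0683 in reads. Its WT replicate 1 had 149 tags per 1000000, above all *Mbnl1* KO replicates, which had 83.8, 124 and 109, while the other WT replicates had 28.7 and 44.6. mt-Nd4l had 1 and 14 tags, and mt-Nd6, the only mRNA of the minus strand, had 0 and 12, with 4 tags in each *Mbnl1* KO replicate.

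Complex III passes electrons to cytochrome c, and mt-Cytb (chrM:14145-15288) encodes its cytochrome b. It had 10 WT and 69 *Mbnl1* KO tags, with 0, 21.5 and 44.6 per 1000000 in WT and 132, 169 and 153 in *Mbnl1* KO. The replicates did not overlap, the ratio was 4.97 (2.55 to 10.8) or 9.005 without WT replicate 3, and the log2 difference was 1.596 ± 0.454 (SE, adjusted p = 0.0110 by edgeR), a call that was lost without WT replicate 2. Complex IV reduces oxygen, and its 3 core subunits are encoded on chrM. mt-Co2 (chrM:7013-7696) had 13 and 103 tags, with 42.6, 21.5 and 51.0 per 1000000 in WT and 171.6, 281.6 and 255.1 in *Mbnl1* KO. It had the smallest adjusted p of the 26 genes, with a log2 difference of 1.83 ± 0.40 (SE, adjusted p = 0.000926 by edgeR) and a ratio of 5.71 (3.20 to 11.1). In reads the ratio of mt-Co2 was 50.4, and the ratio of mt-Co1 was 1.11. mt-Co1 (chrM:5328-6872) carried the most tags of any mRNA, 37 and 142, for a ratio of 2.77 (1.92 to 4.09). Its WT replicates had 128, 57.3 and 147 tags per 1000000 and its *Mbnl1* KO replicates 259.4, 473.1 and 255.1, without overlap, and it missed the threshold of the test (adjusted p = 0.0732 by edgeR). mt-Co3 had 12 and 53 tags, for a ratio of 3.18 (1.68 to 6.55). In complex V, the ATP synthase, mt-Atp6 had 9 and 42 tags (3.36, 1.61 to 7.86, and 5.48 without WT replicate 3) and mt-Atp8, which overlaps it, had 2 and 17.

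The highest points of the 3 called mRNAs are shown to set them beside the rRNA and tRNA points above, and none of them holds a YGCY motif.
mt-Nd2 chrM:4396-4425: tattttcataggggcatgaggaggacttaa
mt-Co2 chrM:7308-7337: ccatagggcaccaatgatactgaagctacg
mt-Cytb chrM:15131-15160: agccaacctacttatcttaacctgaattgg
These points were low, and they lie in genes called higher in *Mbnl1* KO, so their split by genotype is no separate result. That of mt-Nd2 was covered by 1 WT and 5 *Mbnl1* KO tags, that of mt-Co2 by 0 and 16, and that of mt-Cytb by 0 and 9. At mt-Co2 these 16 are few beside the 116 tags of the whole gene. The YGCY site with the most tags had 0 WT and 12 *Mbnl1* KO tags in mt-Co2. In mt-Nd2 and in mt-Cytb it had 0 and 3.

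The tRNAs carry amino acids to the ribosome, and 14 of the 22 had at least 20 tags. mt-Tv, between the rRNAs at chrM:1025-1093, had the most, 20 WT and 72 *Mbnl1* KO tags, with 42.6, 50.2 and 70.1 per 1000000 in WT and 104, 225 and 190 in *Mbnl1* KO. The replicates did not overlap and the ratio was 2.60 (1.56 to 4.50). mt-Tm had 17 and 55 tags (2.33, 1.33 to 4.29) and mt-Th had 14 and 52 (2.68, 1.46 to 5.23), each without overlap of the replicates. In reads the ratio of mt-Tm was 0.271, and it also lay below 1 at mt-Tk, mt-Tg, mt-Ta, mt-Tl2 and mt-Tp. In the other direction, in reads the ratio of mt-Tv was 21.1, the ratio of mt-Tl1 was 13.1, the ratio of mt-Ti was 28.9 and the ratio of mt-Tt was 120.1. Among these 14, the ratio in tags was highest at the tRNA for arginine, mt-Tr, with 2 and 20 tags (7.21, 1.75 to 63.6). Both WT tags came from replicate 2, and without WT replicate 3 the ratio was 3.92 (0.951 to 34.6). At the tRNA for threonine, mt-Tt, with 5 and 33 tags, the ratio was 4.76 (1.85 to 15.6). The ratio was lowest of the 14 at the tRNA for glycine, mt-Tg, with 17 and 36 tags (1.53, 0.836 to 2.90). Next came those for glutamate and alanine, mt-Te and mt-Ta, both on the minus strand. At these 3 the edgeR log2 difference was near 0, at -0.11, -0.10 and -0.06. The remaining ratios lay between 2.16 at mt-Tl2 and mt-Tp and 4.33 at mt-Ti, with mt-Tk, mt-Tl1 and mt-Ts2 between them. The mt-Ti ratio was 11.2 without WT replicate 1 and 2.57 without WT replicate 2, and that of mt-Tm was 3.59 without WT replicate 3. The interval lay above 1 at 8 of the 14, against 38.4% of the nuclear genes. None of the 14 passed the edgeR threshold, and 2 of them, mt-Tr and mt-Tt, had an unadjusted p under 0.05, a lower share than the 1065 of 3877 nuclear genes. The other 8 tRNAs had 5 to 16 tags each.

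**Figure D4:**
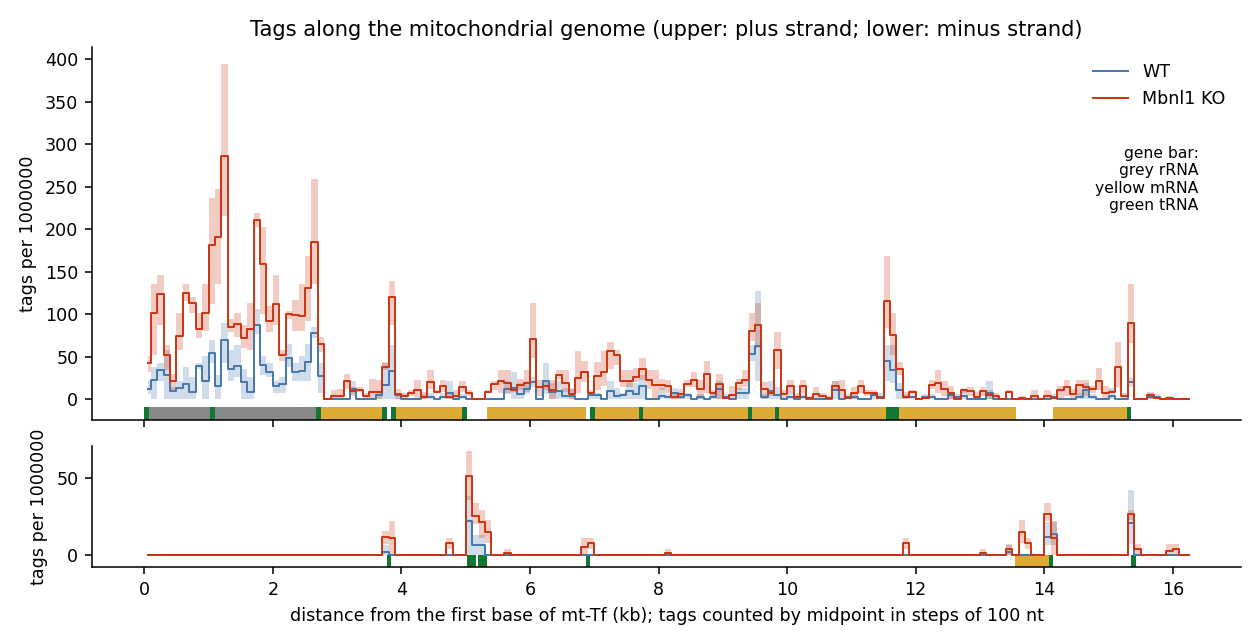
Tags per 1000000 by midpoint in steps of 100 nt along chrM, as the mean of 3 replicates (line) and their range (shade), in WT (blue) and *Mbnl1* KO (red), for the plus strand (upper) and the minus strand (lower). Bars at the base mark rRNA (grey), mRNA (yellow) and tRNA (green) genes of that strand. Tags gather in the rRNA region and at tRNAs, and most of the 12 plus-strand mRNAs lie at low levels between them.

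Along chrM, overlapping tags formed 24 runs of at least 20 tags, 21 on the plus strand and 3 on the minus strand. The 3 on the minus strand lie on mt-Ta, mt-Te and mt-Tp. The highest point, at the 3′ end of mt-Rnr2, was covered by 4, 10 and 12 tags in the WT replicates and 34, 22 and 21 in the *Mbnl1* KO replicates, for a ratio of 2.14 (1.35 to 3.47). The next point of mt-Rnr2, near its 5′ end, was covered by 12 WT and 62 *Mbnl1* KO tags (3.73, 1.99 to 7.59). The point in mt-Tv lay just before the anticodon, with 13 and 52 tags, that in mt-Tm just after it, with 12 and 47, and that in mt-Th farther downstream of it, with 13 and 46. The ratios of the 6 points ran from 2.03 to 3.73. The points were chosen by the tags of both tables together, most of which came from *Mbnl1* KO. Their direction is therefore no separate result.

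Because the precursor is cut at the borders of genes, tags were counted over the 23 borders between plus-strand neighbours at most 5 nt apart. Tags with at least 5 nt in each neighbour numbered 2 in WT and 23 in *Mbnl1* KO, for a ratio of 8.29 (2.05 to 72.6), and all 25 lay on the border of mt-Rnr2 and mt-Tl1, the tRNA for leucine. Of the tags at the highest point, 21 ended at position 2679, which is 4 nt past the annotated end of mt-Rnr2 at 2675, as the capitals in the first sequence show. With at least 8 nt on each side 0 WT and 8 *Mbnl1* KO tags were left. The other 22 borders had none at 5 nt. With at least 3 nt on each side, 14 WT and 65 *Mbnl1* KO tags spanned 9 of the 23 borders, for a ratio of 3.35 (1.86 to 6.46). Tags that ended within 2 nt of a gene's end numbered 21 in WT and 66 in *Mbnl1* KO, and those that started within 2 nt of a gene's start 5 and 42.

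Whether the tags held the motif of Mbnl2 was then asked. YGCY was searched in its forms TGCT or TGCC, as well as CGCT or CGCC, on the strand of the tag only. It was in 10.6% (8.23 to 13.4) of the WT and 13.7% (12.4 to 15.1) of the *Mbnl1* KO chrM tags. On other chromosomes, leaving out single-base tags, the share was 35.3% and 47.5%, and with them 20.5% and 40.6%. Of all 31 nt windows of the chrM plus strand 17.5% hold it. In the genes of that strand 18.9% of mRNA, 14.6% of rRNA and 10.7% of tRNA windows hold it. By class it was in 14.4% (8.89 to 21.6) of WT and 22.6% (19.5 to 26.0) of *Mbnl1* KO mRNA tags, in 11.4% and 10.7% of rRNA tags, and in 5.84% and 9.29% of tRNA tags. Tags are often shorter than 31 nt, so their shares are not directly comparable with those of the windows. The tag shares by class also include genes of the minus strand. Among chrM tags of at least 25 nt the motif was in 9.61% of WT and 13.2% of *Mbnl1* KO tags. The plus strand holds 110 YGCY sites, of which 77 were covered by tags, and only 1 of them by at least 20. It lies in mt-Rnr1 and is shown first, with 1 of the 2 sites next in tags, both in mt-Rnr1, and capitals mark the motif.
mt-Rnr1 chrM:198-227: gcttaagacacctTGCCtagccacaccccc
mt-Rnr1 chrM:672-701: tcagcctatatacCGCCatcttcagcaaac
The first was covered by 8 WT and 22 *Mbnl1* KO tags and the second by 3 and 15, as many in all as the site at 907, with 4 and 14. The median number of tags was 1 per YGCY site and 1 per position of the plus strand.

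Tags on chrM differed from other tags in more than the motif. Of the chrM tags 45.0% in WT and 31.6% in *Mbnl1* KO rested on 1 read, against 71.5% and 55.3% of the tags on other chromosomes with single-base tags left out. Tags of 31 nt made up 38.2% and 57.8% of chrM tags, against 9.31% and 21.99% of those tags. With single-base tags kept, the share on other chromosomes was 42.9% in WT, above that of chrM, and 29.7% in *Mbnl1* KO, below it. RNase A cuts after C and U, and the base before the tag was C or T for 63.6% of WT and 70.8% of *Mbnl1* KO chrM tags, while 53.1% of the plus strand is C or T. By replicate this share was 76.1%, 63.5% and 60.8% in WT and 68.1%, 72.9% and 73.1% in *Mbnl1* KO, which overlap.

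Parts of chrM also exist as copies in the nuclear genome, and a tag from such a part can be placed on either. Of the 31 nt windows of chrM 41.1% have an exact nuclear copy in mm9, 47.1% in mRNA genes, 52.4% in tRNA genes and 8.12% in rRNA genes. All windows of mt-Co2, mt-Atp8, mt-Atp6, mt-Co3 and mt-Nd4l have one, and none of mt-Rnr1 or mt-Nd1. Of the chrM tags 184 in WT and 751 in *Mbnl1* KO match a nuclear copy exactly. Conversely, 198 WT and 888 *Mbnl1* KO tags placed on nuclear chromosomes match chrM exactly, and 97.8% (96.7 to 98.6) of these were in the sense of a chrM gene. The segment chr1:24618374-24623023, which copies chrM from 6394 to 11042 on the minus strand, held 490 such tags (81 WT, 409 *Mbnl1* KO), of which 485 were on the minus strand, and the same span of chrM held 524 (92 and 432). Adding the nuclear tags gave 772 WT and 3370 *Mbnl1* KO tags and a ratio of 3.15 (2.91 to 3.41). At mt-Co2 the sum was 29 and 237 tags, with a ratio of 5.89 (4.00 to 8.99), and at mt-Co1 it was 64 and 240, with a ratio of 2.70 (2.04 to 3.62). In the edgeR test 9 of 31 members and 215 of 3877 nuclear genes were then called higher, the members with mt-Atp8, mt-Co3, mt-Nd4l and mt-Tt beside the first 5.

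**Figure D5:**
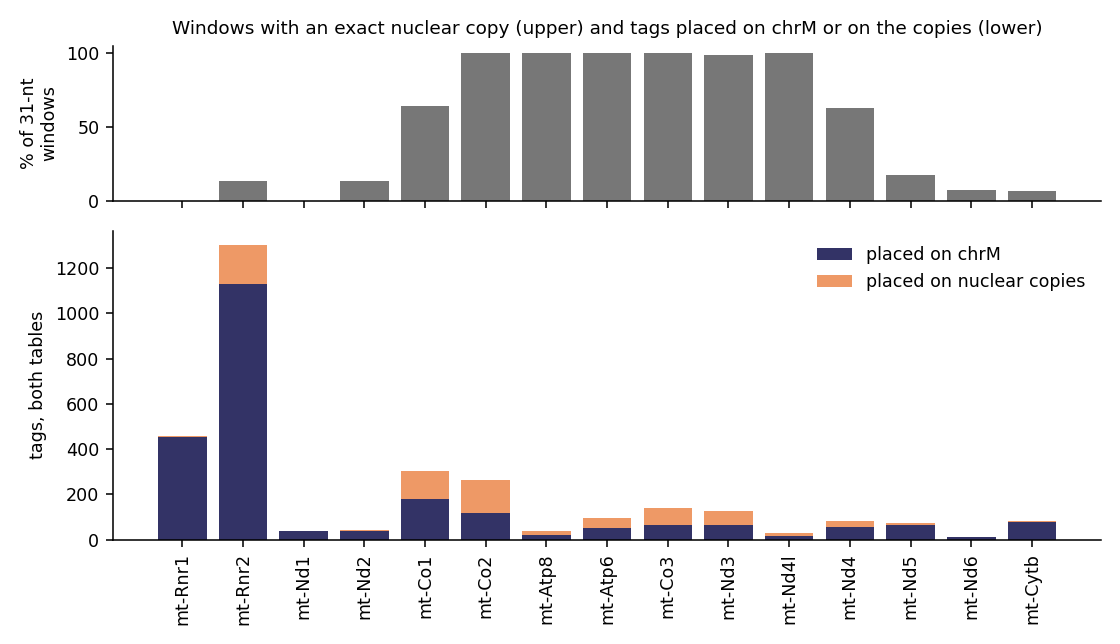
Share of 31 nt windows of each mitochondrial mRNA and rRNA gene with an exact nuclear copy (upper, percent) and the tags of both tables placed on chrM or on an exactly matching nuclear copy (lower, stacked). At mt-Co2 13 WT and 103 *Mbnl1* KO tags were placed on chrM and 16 and 134 on nuclear copies, while mt-Rnr1 had 452 tags on chrM and 8 on copies.

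The nuclear genome encodes the other parts of the same machinery. Of 89 nuclear oxidative phosphorylation subunits, 12 had at least 20 tags, with a median ratio of 2.41 (1.74 over the nuclear genes), and edgeR called 4 of the 12 higher and none lower, against 5.6% and 7.14%. They were Sdha of complex II, with 20 WT and 111 *Mbnl1* KO tags (log2 difference 1.29 ± 0.36, adjusted p = 0.00866 by edgeR), Uqcrc1 (2 and 31) and Uqcrc2 (7 and 56) of complex III, and Atp5a1 of ATP synthase (27 and 125). Atp5o, also of ATP synthase and the third in tags, had 41 and 72 and did not pass (log2 difference -0.34 ± 0.34, adjusted p = 0.554 by edgeR). Over the 89 genes the tags summed to 292 and 1024, for a ratio of 2.53 (2.22 to 2.89), next to 3.64 for the mitochondrial mRNAs. The 77 mitochondrial ribosomal protein genes had 122 and 282 tags (1.67, 1.34 to 2.08), and the 32 factors of mitochondrial RNA transcription and processing that matched the annotation had 77 and 160 (1.498, 1.14 to 1.99). Of these, 3 and 2 genes could be tested, and none passed, with adjusted p by edgeR from 0.344 to 0.960 and from 0.228 to 0.759. The ribosomal protein genes were Mrpl42 (17 WT and 39 *Mbnl1* KO tags), Mrps6 (8 and 32) and Mrps28 (6 and 15). The factors were Angel2 (20 and 26) and Lrpprc (9 and 26), which stabilizes mitochondrial mRNAs, and 1110008L16Rik, the next in tags with 10 and 9, had too few to test. The ratio of the 10 muscle fibre markers was 2.52 (2.35 to 2.71). In a bulk lysate, more RNA of a gene, more Mbnl2 on each RNA and RNA carried along without binding cannot be told apart. No RNA level was measured in these libraries, and neither genotype lacked Mbnl2. The paper reports that Mbnl2 protein rose in *Mbnl1* KO muscle, where it lay mainly in the nucleus.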

How the data were processed

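Mbnl2 HITS-CLIP tags were obtained from quadriceps of both genotypes. The authors filtered reads, aligned them to mm9 with BWA (version not given in the sources used here), removed potential PCR duplicates and merged 3 mice into 1 table per genotype. The deposited count of a tag, made by the authors and not normalized, says how many reads it stands for. The methods state that sequences under 20 nt were discarded, but the tables hold tags from 18 to 33 nt, and all were kept. How reads with several equally good positions were placed is not given in the sources used here.

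Tags were assigned by strand to the gene with the largest overlap in the mm9 GENCODE annotation, divided by the tags of the table and compared as ratios with exact Clopper-Pearson intervals at 95%. This was the comparison as planned, with no test, since each genotype was expected as 1 merged table. The replicates, told by display colour, and the test on them were added after the tables were seen. Genes of at least 20 tags in both tables together were tested (edgeR 4.0.16 in R 4.3.3, TMM, quasi-likelihood). DESeq2 1.42.0 was an alternative. The test was also tried on counts simulated from the means and spread of these data, with 200 of 3903 genes changed. It recovered 13% of the 2-fold and 74% of the 4-fold changes. Counting used Python 3.11.15, numpy 2.4.6, pandas 2.3.3, scipy 1.17.1 and samtools 1.23.1, and plots used matplotlib 3.10.9. Exact nuclear copies were blocks of at least 18 nt, and a tag counted as a copy when its whole reference sequence matched.

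The genes and lists were chosen with earlier results of these data known. Named were all mRNA and rRNA genes, tRNA genes of at least 20 tags, the 6 highest points, borders of at least 10 spanning tags and, of each nuclear list, the 3 genes with the most tags. Uqcrc1 and Uqcrc2, the highest points of the called mRNAs and the YGCY sites shown were chosen after their values were seen. The alternatives tried were other scalings, tag filters, collapsing, assignment rules, nuclear copies and leaving out each replicate.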

Additional observations from a re-analysis of the deposited data

How the results depend on the processing

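The direction of the chrM ratio, above 1, held under every alternative run. It was 4.32 with raw tags, 2.13 without single-base tags, 2.46 and 2.26 with tags at the same position or 5′ end collapsed across replicates, 2.005 with tags of at least 2 reads, 4.52 with tags of at least 25 nt and 1.27 in reads. Collapsing 5′ ends only within a replicate, chosen after seeing the data, gave 2.90. Leaving out 1 replicate gave 2.82 to 3.63. For the mRNAs the ratio was 5.05 with raw tags, 2.10 scaled by the median nuclear gene, 2.49 without single-base tags, 2.99 with 5′ ends collapsed, 2.20 with at least 2 reads, 1.28 in reads and 6.25 with at least 25 nt, and 3.00 to 4.58 without 1 replicate. For the rRNAs it was 4.30, 1.79, 2.11, 2.12, 2.12, 1.79 and 4.13 in the same order, 2.39 with the same position collapsed, and 2.92 to 3.54 without 1 replicate. For the tRNAs it was 3.61, 1.501, 1.78, 1.72, 1.61, 0.843 and 4.13, 1.92 with the same position collapsed, and 2.35 to 3.09 without 1 replicate. The direction of the tRNAs thus turned in reads, and the cause was not tested.

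The genes past 2-fold were 8 of 26 scaled by the median nuclear gene (13.6% of nuclear genes) and 14 of 26 without single-base tags (28.9%), 11 of 17 with 5′ ends collapsed (31.2%), 9 of 20 with at least 2 reads (30.95%), 14 of 16 without tags that have a nuclear copy (41.5%) and 12 of 14 with at least 50 tags (47.8%). Those with an interval above 1 were 11 of 26 scaled by the median nuclear gene (11.7% of nuclear genes), 12 of 19 with the same position (31.04%) and 11 of 17 with 5′ ends collapsed (29.2%), 6 of 20 with at least 2 reads (18.6%), 13 of 16 without copies (38.4%) and 13 of 14 with at least 50 tags (60.5%). Without 1 replicate the counts were 17 to 22 and 16 to 19, of 19 to 25 genes (38.6% to 52.7% and 30.05% to 41.4% of nuclear genes). In reads 24 of 36 were past 2-fold upward (52.3%) and 8 downward, for which no share of nuclear genes was counted.

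Single genes turned below 1 at mt-Tg (0.880 by the median nuclear gene, 0.915 with 5′ ends collapsed, 0.840 with at least 2 reads, 0.150 in reads), mt-Ta (0.914 by the median nuclear gene, 0.220 in reads), mt-Te (0.890 by the median nuclear gene), mt-Nd3 (0.933 with at least 2 reads, 0.0683 in reads), and in reads also at mt-Tm (0.271), mt-Tk (0.353), mt-Nd4 (0.328), mt-Tl2 (0.315) and mt-Tp (0.406). Of 543 such values 14 turned, 42 moved and 487 stayed within their interval.

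The edgeR test called 19 of 26 genes with all tags as library size (1148 of 3877 nuclear genes), 9 of 31 with nuclear copies added, 0 of 20 with at least 2 reads (6 at an unadjusted p under 0.05; 3 of 1732 nuclear genes called) and 3 of 26 with DESeq2 (38 of 3877). Without 1 replicate it called 3 to 5 of 19 to 25, with the 3 of 24 without WT replicate 2, where 46 of 3421 nuclear genes were called higher, and 5 of 25 without WT replicate 3, where 220 of 3282 were. mt-Rnr1, mt-Rnr2 and mt-Co2 were called in all of these but the test on tags of at least 2 reads. mt-Cytb was lost without WT replicate 2 and with DESeq2. mt-Nd2 was lost without each WT replicate, without *Mbnl1* KO replicate 2 or 3, and with no filter. It was left out of the test by filterByExpr and got no adjusted p from DESeq2. No gene was called lower by any of them.

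The sense share was 100% in WT and 99.4% in *Mbnl1* KO with tags of at least 25 nt, and 99.9% in both in reads. Tags across a border were 14 WT and 65 *Mbnl1* KO at 3 nt on each side and 0 and 8 at 8 nt. The summed ratio of the nuclear oxidative phosphorylation subunits was 2.18 without single-base tags and 1.85 with at least 2 reads, where the ribosomal proteins had 1.20 and the RNA factors 1.13.

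No paired analysis was possible because the replicate numbers follow display colours and pair no WT mouse with an *Mbnl1* KO mouse. Depth limits most mRNAs and tRNAs, which rest on 0 to 20 WT tags except mt-Co1. RNase conditions could not be separated, and no input RNA was measured.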
